A study of Caenorhabditis elegans with 20 samples.

Results

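Lysozymes, saposin-like proteins and small antimicrobial peptides were followed in whole Caenorhabditis elegans adults, over 20 RNA libraries of 5 strains. The genes were taken from the deposited table by name: every row whose symbol starts with lys-, ilys-, spp-, fipr-, cnc- or abf- and a digit. Of the 46284 genes listed, 92 carried such a name, and 71 of these had an FPKM of 0.5 or more in 4 or more libraries and were kept. FPKM are fragment numbers corrected for transcript length and for how many fragments a library had mapped. The kept genes were 8 of 10 lys, 2 of 6 ilys, 24 of 30 spp, 24 of 29 fipr, 8 of 11 cnc and 5 of 6 abf genes. The names and the FPKM minimum use no difference between strains, but each strain has 4 libraries, so a gene that is high in 1 strain alone can pass. 5 kept genes, spp-7, spp-12, spp-21, fipr-16 and cnc-6, reached the minimum in 4 libraries only with those of a certain strain, which was hecd-1 for spp-21, bcat-1 for spp-7 and the double mutant for fipr-16, and their levels are given as a description.

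The single mutants ivd-1(tm6784) and bcat-1(hh58) were sequenced beside a strain that carries both alleles, called the double mutant here, beside hecd-1(tm2371) mutants and beside wild-type, with 4 replicates each. ivd-1 codes for isovaleryl-CoA dehydrogenase, which acts in the breakdown of leucine, and hecd-1 for an E3 ubiquitin ligase. bcat-1 codes for the branched-chain amino acid aminotransferase of the initial step of that breakdown, upstream of IVD-1. All strains descend from the Bristol N2 strain, were kept at 20 °C on OP50 E. coli, and were collected on day 1 of adulthood from independent experiments. bcat-1(hh58) is a single engineered premature stop allele, and the collection of strains that develop slowly was adapted to reach the same stage. The comparisons ask how the loss of an earlier and of a later step of branched-chain amino acid breakdown, alone and together, and the loss of HECD-1, are reflected in transcript levels.

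C. elegans has no circulating immune cells and meets microbes at its gut and skin. Epithelial cells of the intestine, the pharynx and the epidermis secrete lysozymes, which cut bacterial cell walls, and small peptides, which act on microbial membranes. Saposin-like proteins with pore-forming activity against bacteria are called caenopores. The lys genes code for lysozymes of the type found in protists and the ilys genes for invertebrate-type lysozymes. Caenacins (cnc) are short glycine-rich peptides of the epidermis, fipr genes code for short secreted peptides related to peptides induced by fungal infection, and abf genes code for defensin-like peptides. Most of these genes have been named from their sequence, and for many of them no function is known.

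The targeted genes were read first. ivd-1 lay at 149.1 to 161.7 FPKM in ivd-1 mutants and at 59.65 to 65.92 FPKM in the double mutant, against 206.3 to 230.4 FPKM in wild-type, but it also lay low in bcat-1 mutants, at 122.6 to 127.2 FPKM. hecd-1 lay at 21.53 to 23.27 FPKM in hecd-1 mutants, against 32.29 to 33.71 FPKM in wild-type. bcat-1 lay at 197.2 to 217.8 FPKM in bcat-1 mutants, against 123.3 to 144.7 FPKM in wild-type, so that the level of this transcript does not check the label of the stop allele. The bcat-1 transcript also lay high in ivd-1 mutants, at 194.6 to 228.2 FPKM, and in the double mutant, at 146.0 to 228.0 FPKM. The number of reads per library is unknown, and no counting interval can be given. Depth relative to the other libraries, read from genes with low values, was between 0.89 and 1.08. No gene of the tissue marker lists was at 0 in all libraries.

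Differences were tested by limma on log2(FPKM + 0.5) in the 15957 genes that passed the same FPKM minimum, and were called where p, adjusted over all of them by the Benjamini-Hochberg method, did not exceed 0.05. Fold changes are given on that scale, which understates the change of genes with low values. In ivd-1 mutants 28 of the 71 genes were higher and 2 lower than in wild-type, where 22.8% of all tested genes were called, 19.9% higher and 2.88% lower. In bcat-1 mutants 40 were higher and 1 lower, where 44.2% of all genes were called, 33.9% higher and 10.3% lower. In the double mutant 28 were higher and 4 lower, where 38.3% were called, 26.4% higher and 11.9% lower. In hecd-1 mutants 7 were higher and 10 lower, where 21.1% were called, 14.0% higher and 7.15% lower. Without the 5 genes that pass only through a certain strain, the counts over 66 genes were 27 higher and 2 lower in ivd-1, 39 and 1 in bcat-1, 25 and 4 in the double mutant and 6 and 10 in hecd-1 mutants. The 4 comparisons share the wild-type libraries. The median log2 fold change of the 71 genes was 0.53 in ivd-1, 0.78 in bcat-1, 0.54 in the double mutant and 0.09 in hecd-1 mutants, and that of all tested genes was 0.11, 0.17, 0.10 and 0.08. A total of 16 members were called in none of the 4 comparisons, among them 10 fipr genes.

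**Figure D1:**
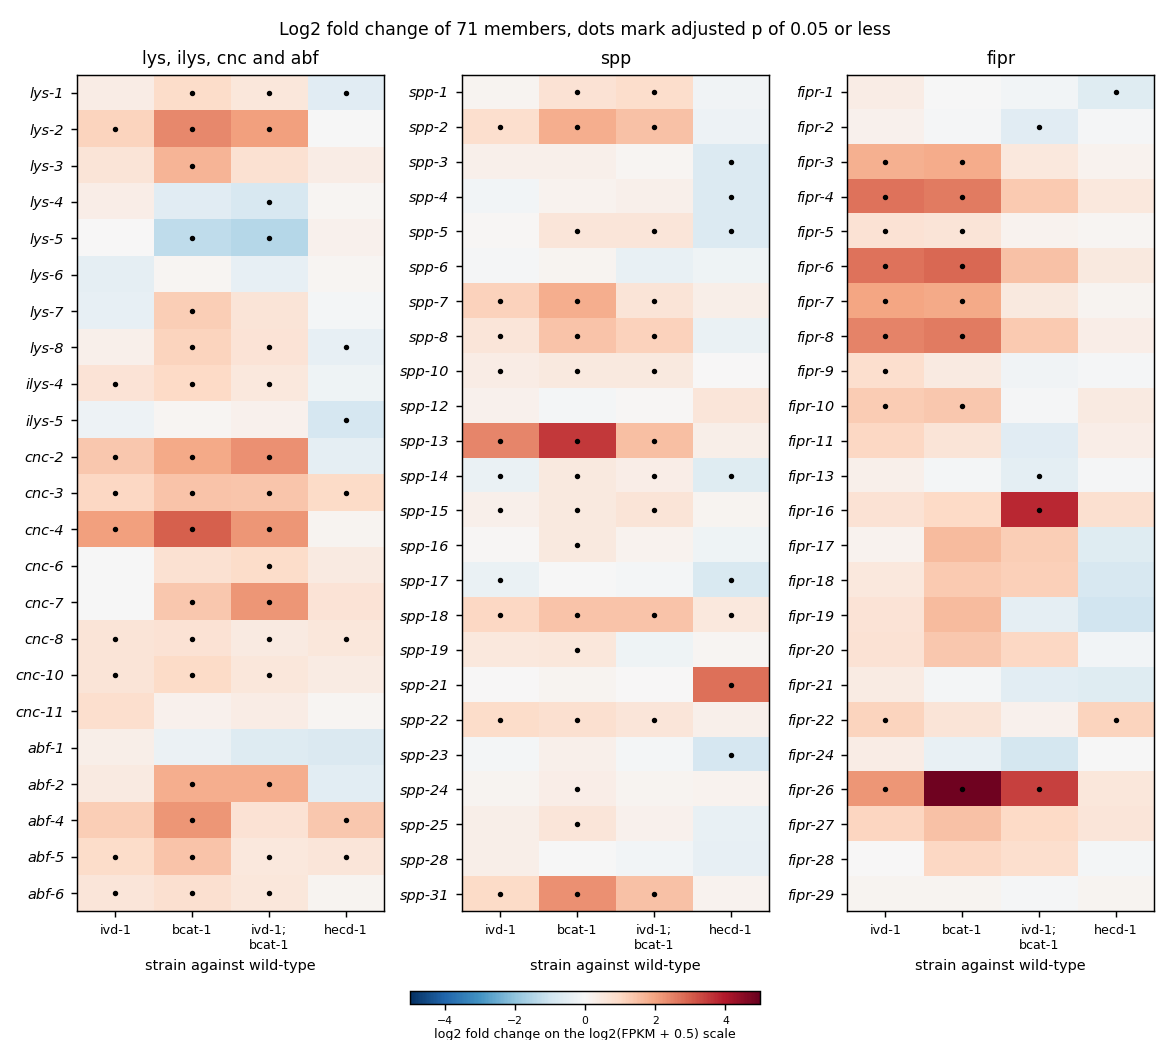
Log2 fold change against wild-type, on the log2(FPKM + 0.5) scale, for the 71 members in rows and the 4 mutant strains in columns, with dots where the adjusted p was 0.05 or less. fipr-26 (4.88) and spp-13 (3.52) reached the highest changes in bcat-1 mutants, and spp-21, which passed the FPKM minimum only through the hecd-1 libraries, has a dot in the hecd-1 column.

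Levels differed by orders of magnitude between members. The 4 most abundant transcripts, ilys-5, spp-17, spp-5 and spp-14, together made up 67.25% of the summed mean FPKM of the 71 genes. A further 10 genes averaged over 100 FPKM, 26 between 10 and 100, 21 between 1 and 10, and 10 under 1 FPKM. Summed over the 71 genes, the level was 14110 ± 738.1 FPKM in bcat-1 mutants, 13120 ± 522.1 in the double mutant, 10640 ± 411.4 in ivd-1 mutants, 7112 ± 490.5 in hecd-1 mutants and 10760 ± 918.7 in wild-type (SD, n = 4 each). The sum in ivd-1 mutants differed from that in wild-type by less than the SD of either strain. The saposin-like family made up most of it, with 8607 ± 385.5 FPKM in bcat-1 mutants, 8152 ± 229.2 in the double mutant, 6183 ± 151.9 in ivd-1 mutants and 4292 ± 376.5 in hecd-1 mutants, against 6639 ± 724 in wild-type.

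Among the lysozymes of the lys family, lys-2 showed the largest rise. Its level was 105.8, 138.9, 174.4 and 123.6 FPKM in ivd-1 mutants, 314.3, 249.1, 450.6 and 338 in bcat-1 mutants, 257.9, 246.8, 267.4 and 262.1 in the double mutant and 63.22, 58.62, 68.46 and 51.83 in hecd-1 mutants, against 48.45, 50.88, 102.6 and 55.99 in wild-type. All libraries of ivd-1, bcat-1 and the double mutant lay above the highest wild-type library, and those of hecd-1 lay within the wild-type range. The log2 fold change was 1.11 (SE 0.21, adjusted p = 0.00095) in ivd-1, 2.42 (SE 0.21, adjusted p = 1.3e-07) in bcat-1 and 2.06 (SE 0.21, adjusted p = 1.2e-06) in the double mutant. Between the mutants, bcat-1 lay 1.30 (SE 0.21, adjusted p = 0.00025) above ivd-1 on the log2 scale, and the double mutant lay 0.95 (SE 0.21, adjusted p = 0.0021) above ivd-1. In worms, lys-2 is a gene of the intestinal response to pathogenic bacteria.

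lys-1 and lys-8 are also intestinal lysozymes with a known part in defence against bacteria. lys-1 was at 420.8, 511, 574.8 and 489.5 FPKM in ivd-1 mutants, 639.8, 555, 1018 and 751.5 in bcat-1 mutants, 607.7, 609.4, 525.7 and 546.7 in the double mutant and 284.2, 288, 259.3 and 215.4 in hecd-1 mutants, against 317, 368.6, 509.8 and 365.6 in wild-type. The bcat-1 and double mutant libraries lay above all wild-type libraries, the hecd-1 libraries below all of them, and ivd-1 overlapped with wild-type. Its log2 fold change was 0.91 (SE 0.16, adjusted p = 0.00021) in bcat-1, 0.57 (SE 0.16, adjusted p = 0.011) in the double mutant and −0.56 (SE 0.16, adjusted p = 0.023) in hecd-1, and it was 0.37 (SE 0.16, adjusted p = 0.11) in ivd-1 mutants. The call in hecd-1 was lost without hecd-1 replicate 3 (adjusted p = 0.051) or 4 (0.082), or without wild-type replicate 3 (0.083). lys-8 was at 163.2, 203.1, 188 and 185.1 FPKM in ivd-1 mutants, 331.1, 280.6, 398 and 349.5 in bcat-1 mutants, 255.7, 258.5, 240.1 and 261.5 in the double mutant and 128, 126.6, 117.8 and 105.4 in hecd-1 mutants, against 138.6, 159.4, 181.5 and 149.5 in wild-type. It showed the same order of strains as lys-1, with log2 fold changes of 1.1 (SE 0.10, adjusted p = 1.8e-07) in bcat-1, 0.70 (SE 0.10, adjusted p = 4e-05) in the double mutant and −0.39 (SE 0.10, adjusted p = 0.01) in hecd-1. For lys-8, 38 exonic bases overlap a coding gene on the other strand.

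lys-7, a lysozyme regulated by the insulin and DAF-16 pathway, was called higher only in bcat-1 mutants. Its level was 107.4, 96.34, 201 and 160.8 FPKM in bcat-1 mutants, 69.84, 81.59, 124.8 and 96.04 in the double mutant, 44.94, 41.09, 58.09 and 33.79 in ivd-1 mutants and 45.64, 52.07, 77.46 and 44.94 in hecd-1 mutants, against 40.97, 51.03, 81.96 and 64.33 in wild-type. Every bcat-1 library lay above every wild-type library. The log2 fold change was 1.22 (SE 0.26, adjusted p = 0.00097) in bcat-1 mutants and 0.65 (SE 0.26, adjusted p = 0.058) in the double mutant. In direct comparison bcat-1 lay 1.62 (SE 0.26, adjusted p = 0.00029) above ivd-1 mutants and the double mutant 1.05 (SE 0.26, adjusted p = 0.0045) above them.

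lys-3 was a transcript of low level, at 5.397, 0.5457, 2.382 and 0.9486 FPKM in bcat-1 mutants, against 0.3458, 0.2474, 0.1527 and 0.07461 FPKM in wild-type (log2 fold change 1.69, SE 0.39, adjusted p = 0.0019). The opposite direction was found for lys-5, at 0.6277, 0.6331, 0.3503 and 0.4308 FPKM in bcat-1 mutants and 0.4443, 0.4236, 0.4782 and 0.2688 in the double mutant, against 2.362, 2.814, 1.5 and 1.269 in wild-type. lys-5 fell by 1.26 (SE 0.29, adjusted p = 0.0016) on the log2 scale in bcat-1 and by 1.42 (SE 0.29, adjusted p = 0.00096) in the double mutant, and its levels in ivd-1 and hecd-1 mutants overlapped with wild-type. lys-4, on the same chromosome IV, was at 64.5 to 141.5 FPKM in the double mutant, against 145.7 to 213.1 FPKM in wild-type (log2 fold change −0.80, SE 0.24, adjusted p = 0.013), and lys-6 was called in no comparison with wild-type.

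**Figure D2:**
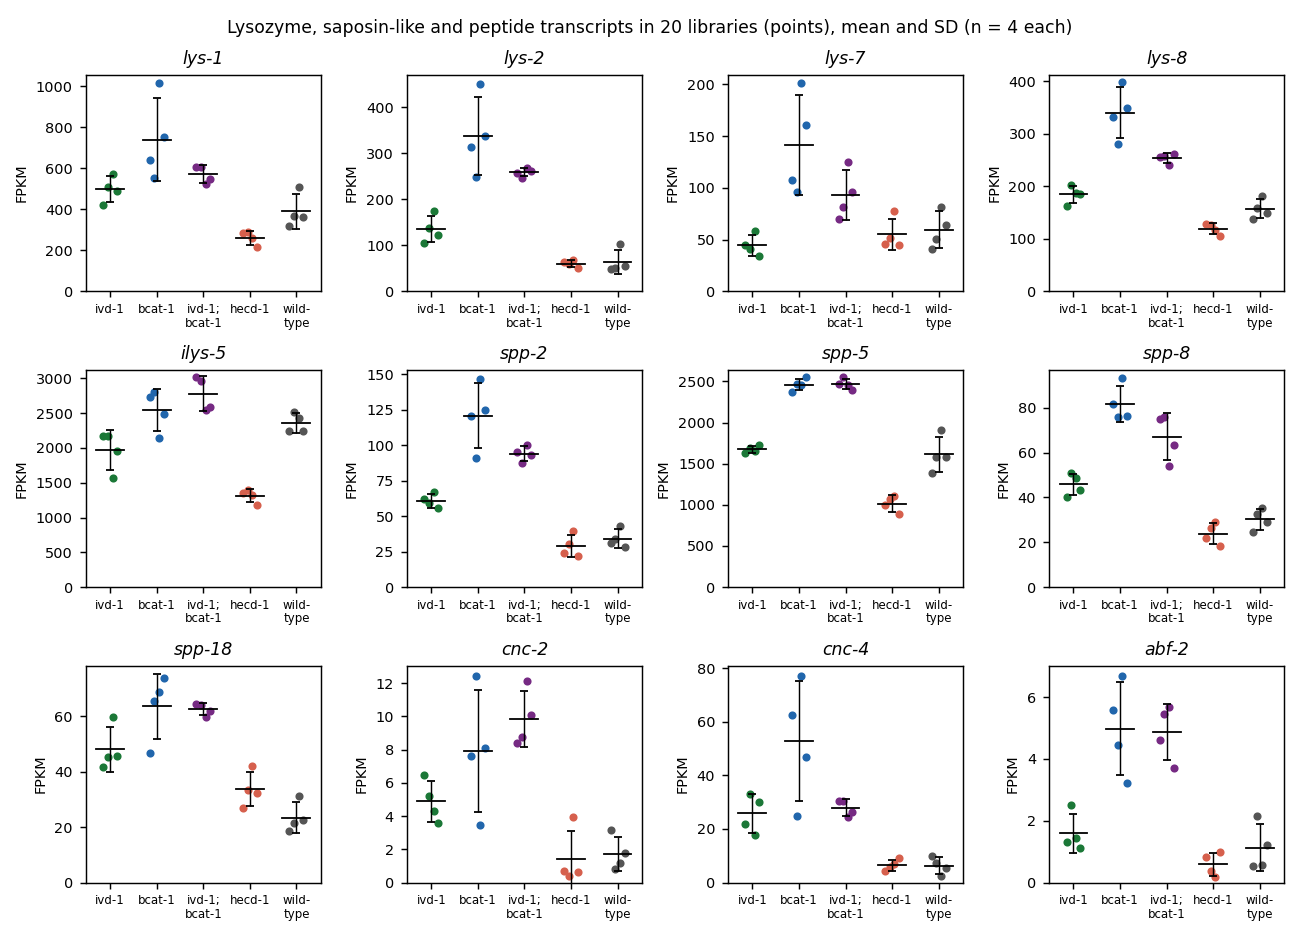
FPKM of 12 members in each of the 20 libraries (points), by strain, with the mean as a bar and the SD as an error bar (n = 4 each). The bcat-1 and double mutant libraries of spp-5 lay between 2374 and 2554 FPKM, and all wild-type libraries were at or below 1904 FPKM.

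ilys-5, the most abundant member, averaged highest in the double mutant and lowest in hecd-1 mutants. It was at 2173, 2176, 1574 and 1952 FPKM in ivd-1 mutants, 2734, 2808, 2149 and 2490 in bcat-1 mutants, 3025, 2963, 2547 and 2586 in the double mutant and 1355, 1399, 1318 and 1183 in hecd-1 mutants, against 2241, 2517, 2436 and 2242 in wild-type. hecd-1 libraries lay below all others. The log2 fold change in hecd-1 was −0.84 (SE 0.10, adjusted p = 2.6e-05), while those of ivd-1 (−0.27, adjusted p = 0.062), bcat-1 (0.10, adjusted p = 0.44) and the double mutant (0.23, adjusted p = 0.078) did not pass. ilys-4 was at 12.84, 6.645, 15.64 and 10.27 FPKM in bcat-1 mutants, against 5.481, 4.706, 5.96 and 4.66 FPKM in wild-type (log2 fold change 1.00, SE 0.18, adjusted p = 0.00027). In the other mutants ilys-4 was at 6.962, 9.752, 8.711 and 8.823 FPKM in ivd-1 mutants (0.67, adjusted p = 0.015), 8.76, 6.406, 7.496 and 8.255 in the double mutant (0.53, adjusted p = 0.032) and 3.898, 4.957, 4.124 and 4.677 in hecd-1 mutants. Its ivd-1 and double mutant libraries lay above all wild-type libraries, but the call in ivd-1 was lost without ivd-1 replicate 2 (0.057) and that in the double mutant without any one of 5 libraries. The invertebrate-type lysozymes ilys-1, ilys-2 and ilys-3 did not reach the FPKM minimum in 4 libraries; the last of them is known to digest bacteria in the worm gut.

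Of the 24 saposin-like genes, 9 were higher and 2 lower in ivd-1 mutants, and 16 were higher in bcat-1 mutants. In the double mutant 12 were higher, and in hecd-1 mutants 2 were higher and 6 lower. Of all tested genes, 19.9%, 33.9%, 26.4% and 14.0% were higher in that order of strains, and 2.88%, 10.3%, 11.9% and 7.15% lower. spp-5 codes for a caenopore that permeabilises bacterial membranes and is made in the intestine. It was at 1632, 1689, 1651 and 1726 FPKM in ivd-1 mutants, 2374, 2464, 2458 and 2549 in bcat-1 mutants, 2465, 2554, 2458 and 2393 in the double mutant and 995.1, 1072, 1109 and 882.5 in hecd-1 mutants, against 1385, 1578, 1904 and 1586 in wild-type. The strains formed 3 levels that did not overlap: bcat-1 and double mutant on top, ivd-1 and wild-type between, hecd-1 below. The log2 fold change was 0.62 in bcat-1 (SE 0.08, adjusted p = 4.5e-06), 0.62 in the double mutant (SE 0.08, adjusted p = 9.4e-06), 0.06 in ivd-1 (SE 0.08, adjusted p = 0.57) and −0.67 in hecd-1 (SE 0.08, adjusted p = 1.6e-05). The difference between the double mutant and bcat-1 was 0.00 on the log2 scale (SE 0.08, adjusted p = 0.97). spp-1, another intestinal caenopore, was at 217, 256.7, 165.1 and 200.6 FPKM in bcat-1 mutants and 236.4, 265.4, 209.2 and 204.2 in the double mutant, against 111, 144.4, 124 and 117.7 in wild-type. It rose by 0.74 (SE 0.13, adjusted p = 0.00021) in bcat-1 and 0.88 (SE 0.13, adjusted p = 8.7e-05) in the double mutant, and was at 0.13 (SE 0.13, adjusted p = 0.48) in ivd-1 mutants. For spp-1, 19 exonic bases overlap a coding gene on the other strand. Of 10 intestine markers, 4 were higher in ivd-1 mutants and 6 in bcat-1 mutants. In the double mutant 2 of them were higher, below the 26.4% of all tested genes, and 2 were lower. The summed level of the 10 markers was 3505 to 4170 FPKM in ivd-1 mutants and 2466 to 4299 in bcat-1 mutants. It was 1979 to 2717 FPKM in the double mutant, against 2782 to 3274 in wild-type. Most of this sum was asp-1, at 1398 to 1871 FPKM in the double mutant, against 1839 to 2191 in wild-type. Of 14 germline and oocyte markers, 5, 7 and 5 were lower in these mutants and none was higher. The part of either list in the levels of lysozymes and saposin-like genes was not tested.

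spp-2, spp-8 and spp-18 were higher in ivd-1 mutants as well. spp-2 was at 61.76, 59.11, 67.13 and 55.52 FPKM in ivd-1 mutants, 120.4, 91.01, 146.6 and 124.8 in bcat-1 mutants, 95.41, 87.66, 99.95 and 93.26 in the double mutant and 23.76, 30.56, 39.34 and 21.68 in hecd-1 mutants, against 30.75, 33.62, 43.27 and 28.26 in wild-type. Its log2 fold change was 0.85 (SE 0.17, adjusted p = 0.0014) in ivd-1, 1.81 (SE 0.17, adjusted p = 2.5e-07) in bcat-1 and 1.47 (SE 0.17, adjusted p = 4e-06) in the double mutant. spp-8 was at 40.3, 50.73, 48.69 and 43.57 FPKM in ivd-1 mutants, 81.74, 76.07, 93.2 and 76.34 in bcat-1 mutants, 75.07, 75.99, 54.2 and 63.47 in the double mutant and 21.87, 26.38, 28.9 and 18.39 in hecd-1 mutants, against 24.55, 32.42, 35.42 and 28.94 in wild-type. For spp-2 and spp-8 alike, the libraries of ivd-1, bcat-1 and the double mutant lay above all wild-type libraries, and the bcat-1 libraries above all ivd-1 libraries. spp-18 was at 41.56, 45.17, 59.83 and 45.81 FPKM in ivd-1 mutants, 46.68, 65.66, 68.65 and 73.7 in bcat-1 mutants, 64.54, 64.1, 59.96 and 61.82 in the double mutant and 27.08, 33.53, 41.95 and 32.45 in hecd-1 mutants, against 18.52, 21.46, 31.25 and 22.67 in wild-type. It was called higher in every mutant, by 1.03, 1.43, 1.42 and 0.52 on the log2 scale (adjusted p = 0.00024, 2.2e-06, 4.8e-06 and 0.03 in that order of strains). The call in hecd-1 was lost without hecd-1 replicate 2, 3 or 4 or wild-type replicate 1, 2 or 4, at adjusted p of up to 0.105.

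spp-10, a longer saposin-like gene, varied little between libraries, at 289, 288.7, 281.7 and 284.4 FPKM in ivd-1 mutants, 298.2, 316.1, 295.5 and 318.1 in bcat-1 mutants, 307.6, 291.9, 316.5 and 306.6 in the double mutant and 220.2, 208.4, 227.1 and 220.9 in hecd-1 mutants, against 229.1, 210.5, 228.2 and 207.5 in wild-type. Its changes of 0.39 (SE 0.04, adjusted p = 6.4e-06) in ivd-1, 0.49 (SE 0.04, adjusted p = 7.2e-08) in bcat-1 and 0.48 (SE 0.04, adjusted p = 1.3e-07) in the double mutant were small and well outside the replicate spread. spp-13 and spp-31 were low in wild-type and rose most within the family in bcat-1 mutants. spp-13 was at 2.765, 7.291, 2.234 and 4.348 FPKM in ivd-1 mutants, 9.38, 4.563, 13.73 and 8.934 in bcat-1 mutants and 3.094, 1.668, 0.5699 and 2.493 in the double mutant, against 0.6585, 0.2841, 0.2654 and 0.06403 in wild-type, with log2 fold changes of 2.44 (SE 0.47), 3.52 (SE 0.47) and 1.5 (SE 0.47). The call of spp-13 in the double mutant (adjusted p = 0.018) was lost without double mutant replicate 1 (0.058) or 4 (0.053) or wild-type replicate 4 (0.053). spp-31 was at 14.83, 8.569, 14.54 and 10.41 FPKM in bcat-1 mutants, against 3.312, 1.595, 1.878 and 1.702 FPKM in wild-type (log2 fold change 2.27, SE 0.25, adjusted p = 1.5e-06). It was also higher in ivd-1 mutants, at 4.298, 5.754, 3.412 and 4.544 FPKM (0.96, adjusted p = 0.01), and in the double mutant, at 9.964, 7.225, 5.701 and 4.586 FPKM (1.48, adjusted p = 0.00021), and lay at 3.251, 2.112, 2.644 and 1.687 FPKM in hecd-1 mutants. spp-7 was at 0.794, 0.9333, 0.3705 and 0.5327 FPKM in ivd-1 mutants, 0.4612, 0.2897, 0.1792 and 0.2552 in the double mutant, 0.3929, 0.1627, 0 and 0 in hecd-1 mutants and 1.415, 0.7407, 2.089 and 1.142 FPKM in bcat-1 mutants and listed at 0 in all wild-type libraries but replicate 1, at 0.04117 FPKM.

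spp-17, spp-14 and spp-3 are abundant and followed other patterns. spp-17 was at 1703, 1573, 1828 and 1816 FPKM in ivd-1 mutants, 2161, 1926, 2147 and 2483 in bcat-1 mutants, 2104, 1770, 2276 and 2073 in the double mutant and 1172, 1138, 1620 and 1214 in hecd-1 mutants, against 2037, 1974, 2612 and 2159 in wild-type. It fell by 0.34 (SE 0.11, adjusted p = 0.04) on the log2 scale in ivd-1 mutants, where each library lay below each wild-type library, a call that was lost without ivd-1 replicate 1, 2 or 4 or wild-type replicate 3 or 4 (adjusted p up to 0.13). spp-14 was at 1164 to 1295 FPKM in ivd-1 mutants, 1938 to 2322 in bcat-1 mutants, 1850 to 1983 in the double mutant and 941 to 1048 in hecd-1 mutants, against 1416 to 1722 in wild-type, and was called in all 4 comparisons: lower in ivd-1 (−0.32) and hecd-1 (−0.62), higher in bcat-1 (0.47) and the double mutant (0.31). spp-3 was at 558.8, 597.7, 666.1 and 635.1 FPKM in ivd-1 mutants and 560.6, 551.2, 674.1 and 653.3 in bcat-1 mutants, against 445.6, 475.9, 652.2 and 511.9 in wild-type, and did not pass the test in either.

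In the fipr family the double mutant lay mostly below the ivd-1 mutants. Of its 24 genes, 10 were higher in ivd-1 and 8 in bcat-1 mutants than in wild-type, while 2 were higher and 2 lower in the double mutant. Of all tested genes, 19.9% were higher in ivd-1, 33.9% in bcat-1 and 26.4% in the double mutant, where 11.9% were lower, so that 8 of 24 in bcat-1 mutants is close to the share of all genes. Directly compared, 13 fipr genes were lower and 1 higher in the double mutant than in ivd-1 mutants, where 44.6% of all tested genes were called, 23.2% lower and 21.4% higher. fipr-4 was at 18.87, 32.12, 16.14 and 18.32 FPKM in ivd-1 mutants, 33.49, 6.329, 33.74 and 16.76 in bcat-1 mutants, 12.65, 9.303, 4.386 and 5.708 in the double mutant and 10.19, 7.266, 2.253 and 1.528 in hecd-1 mutants, against 5.064, 2.498, 3.151 and 1.195 in wild-type. Its log2 fold change was 2.73 (SE 0.56, adjusted p = 0.0021) in ivd-1, 2.59 (SE 0.56, adjusted p = 0.0011) in bcat-1 and 1.31 (SE 0.56, adjusted p = 0.075) in the double mutant. fipr-7 was at 34.43, 56.41, 34.17 and 34.18 FPKM in ivd-1 mutants, 44.54, 17.74, 53.25 and 41.4 in bcat-1 mutants, 19.24, 20.7, 5.572 and 14.4 in the double mutant and 22.75, 19.94, 5.756 and 4.494 in hecd-1 mutants, against 13.91, 10.67, 7.064 and 7.759 in wild-type. The double mutant libraries of fipr-7 lay below all ivd-1 libraries (log2 difference −1.5, SE 0.49, adjusted p = 0.021), a call that was lost without ivd-1 replicate 2 (0.068) or double mutant replicate 3 (0.09).

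fipr-6 and fipr-8 gave values close to those of fipr-4. fipr-6 was at 17.12, 36.84, 17.66 and 14.34 FPKM in ivd-1 mutants and 33.01, 10.78, 31.04 and 23.54 in bcat-1 mutants, against 5.52, 3.832, 1.5 and 1.353 in wild-type (log2 fold changes 2.71 and 2.88, SE 0.64 each). fipr-8 was at 20.03, 37.92, 15.5 and 17.52 FPKM in ivd-1 mutants and 35.22, 8.564, 34.74 and 27.6 in bcat-1 mutants, against 6.935, 4.083, 1.874 and 2.335 in wild-type (log2 fold changes 2.49 and 2.61, SE 0.57 each). In the double mutant, fipr-6 was at 11.98, 13, 3.562 and 8.035 FPKM and fipr-8 at 13.75, 13.09, 5.032 and 7.567. Neither gene was called there, against wild-type or against ivd-1 mutants. Libraries of these genes moved together within a strain. bcat-1 replicate 2 was the lowest of its strain for 21 of the 24 fipr genes and replicate 3 the highest for 17, and ivd-1 replicate 2 was the highest of its strain for 16. Double mutant replicate 3 was the lowest of its strain for 14. These libraries also stood out over all members, fipr genes included. There bcat-1 replicate 2 was lowest for 45 of 71 and replicate 3 highest for 41, and ivd-1 replicate 2 was highest for 37 of 70. Over all tested genes, bcat-1 replicates 2 and 3 had the largest mean absolute deviations from their strain mean, 0.306 and 0.265 on the log2 scale.

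Most larval molt markers were higher in the ivd-1, bcat-1 and double mutants, and some fipr genes in the single mutants. Summed over 8 markers of the larval molt, the level was 66.07 to 122.9 FPKM in ivd-1 mutants, 93.99 to 251.6 in bcat-1 mutants, 65.46 to 75.31 in the double mutant and 44.38 to 60.9 in hecd-1 mutants, against 35.81 to 45.75 in wild-type. Of the 8 markers, 6 were higher in ivd-1, 7 in bcat-1, 7 in the double mutant and 1 in hecd-1 mutants. In bcat-1 mutants 1, nhr-23, was lower. Of all tested genes, 19.9%, 33.9%, 26.4% and 14.0% were higher in that order of strains. Set against ivd-1 mutants, the double mutant had 1 molt marker higher and none lower, with a median of −0.21. The median of the 24 fipr genes was −0.83 there, and 23.2% of all tested genes were lower. Of 11 pharynx markers, 7 were lower and 2 higher there (median −0.92), and of 10 intestine markers 7 and 1 (−0.54). Of 8 sperm markers, 8 were lower (−1.44), and of 9 epidermis markers 3, with 1 higher (−0.39). Of 14 germline and oocyte markers, 7 were higher and 2 lower. Against bcat-1 mutants, 6 of 8 molt markers were lower in the double mutant (median −1.36), where 19.5% of all tested genes were lower. The median log2 fold change of 9 epidermis markers against wild-type was 1.91, 2.84, 1.14 and 0.35 in ivd-1, bcat-1, double and hecd-1 mutants. Of these, 6, 7, 4 and 1 were higher, and 1 was lower in bcat-1. Their summed level did not follow the medians, at 2769 to 2870 FPKM in ivd-1 mutants, 1968 to 2429 in bcat-1 mutants, 1408 to 2566 in the double mutant and 2112 to 2428 in hecd-1 mutants, against 2323 to 2526 in wild-type. Most of this sum was 1 gene, col-19, at 2139 to 2400 FPKM in wild-type. The sum of fipr-4 to fipr-9, a group chosen by its position on chromosome V after the values had been seen, was 138.4, 230.8, 135.9 and 139.9 FPKM in ivd-1 mutants, 196.7, 78.85, 212.3 and 156.5 in bcat-1 mutants, 97.55, 96.31, 38.27 and 69.51 in the double mutant and 96.15, 75.92, 43.65 and 36.58 in hecd-1 mutants, against 62.26, 55, 49.71 and 40.46 in wild-type. Within bcat-1 mutants, replicate 2 was lowest and replicate 3 highest for the molt markers and for the fipr sum alike. In the double mutant, replicate 3 was lowest for both, but replicate 4 was highest for the molt markers (75.31 FPKM) and below replicates 1 and 2 for the fipr sum. Most of the molt sum in wild-type was nhr-23, at 27.94 to 31.25 FPKM there. In the double mutant nhr-23 was at 24.63, 24.6, 28.88 and 28.35 FPKM, so the order of replicates in that sum depends on this gene. The part of any of these marker lists in the fipr differences was not tested. In whole worms, more cells of a type and more RNA per cell cannot be told apart.

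**Figure D3:**
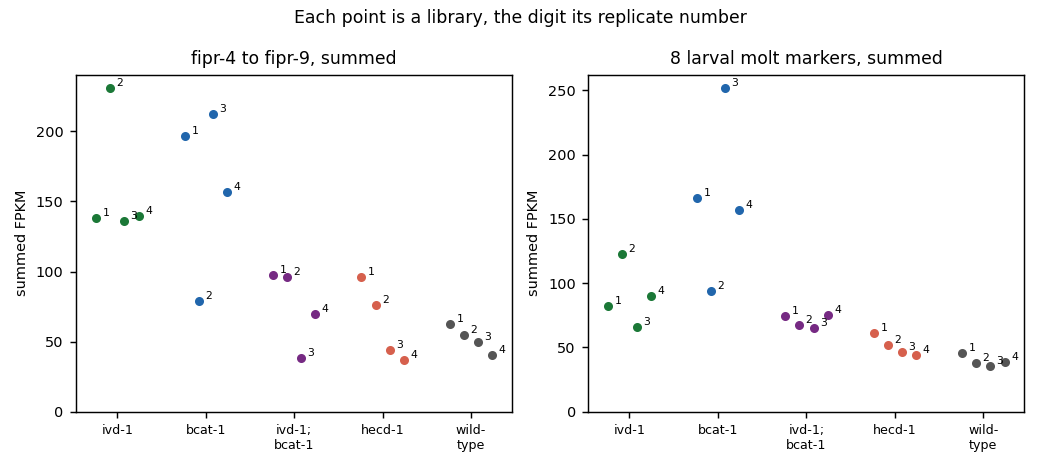
Summed FPKM of fipr-4 to fipr-9 (left) and of 8 larval molt markers (right) in each library, by strain, with the replicate number beside each point. bcat-1 replicate 2 lay at 78.85 FPKM for the fipr genes and 93.99 FPKM for the molt markers, the lowest of its strain in both panels. The molt marker nhr-23 alone was at 27.94 to 31.25 FPKM in wild-type.

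fipr-26 and fipr-16 lay apart from the rest of the family. fipr-26 was at 1.115, 6.362, 1.884 and 1.093 FPKM in ivd-1 mutants, 23.57, 6.285, 36.05 and 11.31 in bcat-1 mutants, 5.47, 7.806, 5.328 and 3.718 in the double mutant and 0.2489, 1.079, 0.287 and 0 in hecd-1 mutants, and was listed at 0 in 3 wild-type libraries and at 0.257 in replicate 4. On the log2(FPKM + 0.5) scale the difference to wild-type was 2.20 (SE 0.50, adjusted p = 0.0044) in ivd-1, 4.88 (SE 0.50, adjusted p = 7.9e-07) in bcat-1 and 3.41 (SE 0.50, adjusted p = 5.9e-05) in the double mutant. bcat-1 lay 2.68 (SE 0.50, adjusted p = 0.0011) above ivd-1. fipr-16, a gene of 150 exonic bases, was at 3.257, 5.945, 8.743 and 9.172 FPKM in the double mutant and listed at 0 in all wild-type libraries, and in the other strains it was above 0 in 1 library each, at 3.211 FPKM in ivd-1, 7.828 in bcat-1 and 3.98 in hecd-1 mutants. The most abundant member of the family, fipr-21, was at 593.3, 739.7, 563.3 and 675 FPKM in ivd-1 mutants, 486.7, 312.6, 582.2 and 451.4 in bcat-1 mutants, 467, 432.6, 201.5 and 308 in the double mutant and 373.3, 365, 254.1 and 272.1 in hecd-1 mutants, against 459.6, 490.4, 478.9 and 480.4 in wild-type, and passed the test in no comparison with wild-type. It was lower in the double mutant than in ivd-1 mutants by 0.93 on the log2 scale (SE 0.22, adjusted p = 0.0034).

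Among the caenacins, 5 of 8 genes were higher in ivd-1, 6 in bcat-1, 7 in the double mutant and 2 in hecd-1 mutants. None was called lower. Of all tested genes, 19.9%, 33.9%, 26.4% and 14.0% were higher in that order of strains. cnc-4, which is induced in the epidermis by fungal infection, was at 22.01, 33.22, 17.73 and 30.15 FPKM in ivd-1 mutants, 62.46, 24.81, 77.22 and 46.92 in bcat-1 mutants, 30.5, 30.57, 24.34 and 26.2 in the double mutant and 4.345, 5.681, 6.808 and 9.135 in hecd-1 mutants, against 10.05, 7.124, 2.607 and 5.268 in wild-type. It rose by 2.05 (SE 0.35, adjusted p = 0.00049) in ivd-1, 3.00 (SE 0.35, adjusted p = 2.9e-06) in bcat-1 and 2.20 (SE 0.35, adjusted p = 0.00014) in the double mutant. cnc-2, an epidermal caenacin under the control of the DBL-1 TGF-beta pathway, was at 7.602, 12.42, 3.477 and 8.118 FPKM in bcat-1 mutants and 8.406, 8.739, 12.11 and 10.07 in the double mutant, against 3.134, 0.8128, 1.179 and 1.804 in wild-type. The log2 fold change of cnc-2 was 1.90 (SE 0.44, adjusted p = 0.0018) in bcat-1 and 2.30 (SE 0.44, adjusted p = 0.00062) in the double mutant. cnc-2 was also called higher in ivd-1 mutants, at 6.451, 5.2, 4.314 and 3.609 FPKM. That call was lost without ivd-1 replicate 1, 2 or 3 or wild-type replicate 2, 3 or 4 (adjusted p up to 0.0955). cnc-7 was at 4.359, 11.05, 4.087 and 3.534 FPKM in bcat-1 mutants and 7.886, 9.225, 18.76 and 6.697 in the double mutant, against 3.06, 0.4999, 2.045 and 2.159 in wild-type. The double mutant lay 2.22 (SE 0.46, adjusted p = 0.0012) above wild-type, and the call in bcat-1 (adjusted p = 0.024) was lost without bcat-1 replicate 2 (0.078) or wild-type replicate 2 (0.093). cnc-8, the most abundant caenacin, was at 158.1, 198, 135.2 and 146.3 FPKM in ivd-1 mutants, 197.1, 131.7, 216.8 and 137.8 in bcat-1 mutants, 175.1, 169.2, 116.1 and 111.7 in the double mutant and 163.5, 155, 139.2 and 139.3 in hecd-1 mutants, against 103.7, 99.57, 112.3 and 90.36 in wild-type. In ivd-1, bcat-1 and hecd-1 mutants every library of cnc-8 lay above every wild-type library. The cnc-8 call in ivd-1 was lost without ivd-1 replicate 2 (adjusted p = 0.0558). Its call in hecd-1 was lost without hecd-1 replicate 1, 2 or 4 or wild-type replicate 2 or 4 (up to 0.0746). In the double mutant its call was lost without double mutant replicate 1 or 2 or wild-type replicate 1, 2 or 4 (up to 0.123).

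Of the defensin-like genes, abf-2 codes for a peptide that kills bacteria and yeast in vitro and is made in the pharynx. It was at 5.568, 4.436, 6.693 and 3.212 FPKM in bcat-1 mutants, 4.618, 5.458, 5.688 and 3.694 in the double mutant, 1.324, 2.512, 1.451 and 1.102 in ivd-1 mutants and 0.8401, 0.3623, 0.192 and 0.9765 in hecd-1 mutants, against 0.5352, 2.161, 0.5691 and 1.221 in wild-type. The rise was 1.82 (SE 0.31) in bcat-1 mutants (adjusted p = 0.00012) and in the double mutant (adjusted p = 0.00025), and bcat-1 lay 1.39 (SE 0.31, adjusted p = 0.0043) above ivd-1. Its chromosome I neighbour abf-1 was called in no comparison with wild-type, at 1.237, 2.343, 1.044 and 2.25 FPKM in bcat-1 mutants, against 1.115, 3.795, 2.555 and 1.832 in wild-type. abf-5 was at 9.588, 10.75, 10.03 and 8.019 FPKM in ivd-1 mutants, 12.43, 9.776, 18.7 and 14.58 in bcat-1 mutants, 7.636, 7.501, 7.11 and 6.448 in the double mutant and 8.955, 7.652, 7.123 and 6.564 in hecd-1 mutants, against 5.279, 5.052, 4.886 and 3.962 in wild-type. All mutant libraries of abf-5 lay above all wild-type libraries, with log2 fold changes of 0.93, 1.41, 0.54 and 0.61 (SE 0.15 each). abf-6 was at 16.92, 11.79, 18.5 and 15.54 FPKM in bcat-1 mutants, against 9.112, 9.886, 8.789 and 7.542 in wild-type (log2 fold change 0.78, SE 0.15, adjusted p = 0.0003). It was at 13.57, 13.61, 13.94 and 12.73 FPKM in ivd-1 mutants (0.59, adjusted p = 0.0079), 14.65, 14.86, 10.48 and 13.25 in the double mutant (0.56, adjusted p = 0.0064) and 12.31, 10.57, 7.855 and 8.377 in hecd-1 mutants. abf-4 was at 0.6715, 1.367, 1.447 and 0.4877 FPKM in ivd-1 mutants, 0.8193, 1.25, 0.1531 and 0.1727 in the double mutant, 1.788, 1.284, 0.5098 and 1.039 in hecd-1 mutants and 2.477, 0.8197, 7.887 and 1.426 FPKM in bcat-1 mutants, against 0.1586, 0, 0.1672 and 0.155 in wild-type.

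bcat-1 and ivd-1 mutants were also set against each other. Of the 71 genes, 19 were higher and 2 lower in bcat-1 than in ivd-1 mutants, where 19.5% of all tested genes were called, 13.2% higher and 6.29% lower. By family, 4 of 8 lys and 10 of 24 spp genes were higher in bcat-1 mutants, against 1 of 24 fipr genes. The lower genes were lys-4 and lys-5. The double mutant against ivd-1 gave 14 higher and 17 lower genes, where 21.4% of all genes were higher and 23.2% lower. The higher ones included lys-2, lys-7, lys-8, spp-1, spp-2, spp-5, spp-8 and abf-2, and most of the lower ones were fipr genes. With quantile normalization the split was 19 higher and 14 lower.

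Against bcat-1 mutants, the double mutant had 1 gene higher (fipr-16, which passed the FPKM minimum only through the double mutant) and 13 lower, where 23.4% of all genes were called, 3.93% higher and 19.5% lower. lys-8 lay 0.41 lower in the double mutant (SE 0.10, adjusted p = 0.015), and spp-13 2.02 lower (SE 0.47, adjusted p = 0.013); each call was lost without bcat-1 replicate 3 or double mutant replicate 3. This count rested on single libraries: it was 35 without bcat-1 replicate 2, and between 2 and 6 without bcat-1 replicate 1, 3 or 4 or double mutant replicate 3 or 4. With the libraries of the strains compared alone, limma called 0 members, with 26 at an unadjusted p under 0.05.

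In 38 of the 71 genes the double mutant differed from the sum of the single mutants on the log2 scale. The interaction, which is the change of the double mutant minus the sum of the changes of the single mutants, was negative and called in 37 of the 71 genes and positive in 1, where 47.4% of all tested genes were called, 35.3% negative and 12.2% positive. Its median was −0.75 over the members and −0.19 over all tested genes. It was called negative in 13 of 24 fipr genes, 12 of 24 spp genes and 4 of 8 lys genes. spp-13 had a value of −4.46 (SE 0.66, adjusted p = 0.0001) and cnc-4 of −2.85 (SE 0.50, adjusted p = 0.00037). In the abundant caenopores it was −0.06 (SE 0.11, adjusted p = 0.66) for spp-5 and 0.00 (SE 0.19, adjusted p = 0.996) for spp-1. The positive interaction of ilys-5 was 0.40 (SE 0.14, adjusted p = 0.03), and this call was lost without any one of 6 libraries (adjusted p between 0.051 and 0.071).

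**Figure D4:**
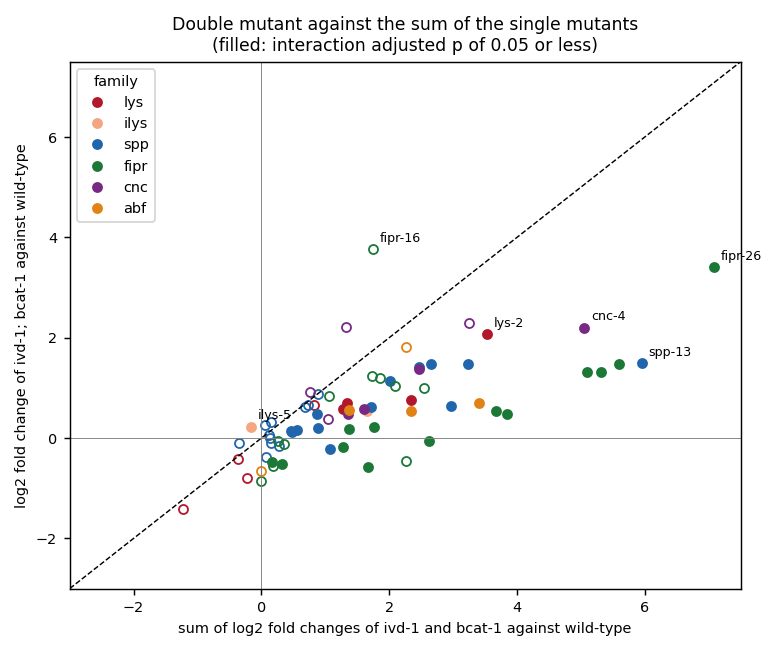
Log2 fold change of the double mutant against wild-type (vertical axis) and the sum of the log2 fold changes of the ivd-1 and bcat-1 mutants against wild-type (horizontal axis) for 71 members, coloured by family, with filled points where the interaction had an adjusted p of 0.05 or less and a dashed line where the values are equal. Of the filled points, 37 lay below the line and ilys-5 above it, and the axes share the wild-type libraries.

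Of the 17 genes called in hecd-1 mutants, 10 were lower and 7 higher than in wild-type, where 7.15% of all tested genes were lower and 14.0% higher. The lower ones were lys-1, lys-8, ilys-5, spp-3, spp-4, spp-5, spp-14, spp-17, spp-23 and fipr-1, and included the 4 most abundant members. spp-3 was at 310.3, 322.8, 391.2 and 285.1 FPKM in hecd-1 mutants, against 445.6, 475.9, 652.2 and 511.9 in wild-type (log2 fold change −0.67, SE 0.11, adjusted p = 0.0006). spp-17 fell by 0.78 (SE 0.11, adjusted p = 0.00017). The summed level of the intestine markers moved in the same direction, at 1961 to 2357 FPKM in hecd-1 mutants, against 2782 to 3274 FPKM in wild-type. Of the 10 markers, 4 were lower and none higher. Most of the sum was asp-1, at 1342 to 1645 FPKM in hecd-1 mutants, against 1839 to 2191 FPKM in wild-type. The sum of 14 germline and oocyte markers was 3992 to 4853 FPKM in hecd-1 mutants, against 3791 to 4049 FPKM in wild-type, with 8 of them higher and 1 lower. One of these markers, rme-2, was listed at 0 in hecd-1 replicate 1, against 388.5 to 436.6 FPKM in the other hecd-1 libraries, and without it the sum was 3992 to 4417 FPKM in hecd-1 mutants, against 3452 to 3685 FPKM in wild-type. Their part in the lower levels of lysozymes and saposin-like genes was not tested.

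spp-21, among the 7 higher genes, passed the FPKM minimum through the 4 hecd-1 libraries alone. It was at 3.588, 3.638, 1.289 and 3.909 FPKM there and listed at 0 in all wild-type, ivd-1 and double mutant libraries, and at 0.2373 FPKM in bcat-1 replicate 4. Since the filter kept the gene for its level in hecd-1 mutants, no test is given. Set against hecd-1 mutants, ivd-1 mutants had 37 genes higher and 1 lower, where 49.9% of all tested genes were called, 27.3% higher and 22.6% lower. The 1 lower gene was spp-21, whose place there follows from the filter and is no result. Of the 24 spp genes, 17 were higher in ivd-1 than in hecd-1 mutants. In this comparison all 10 intestine markers were higher too, with a median of 0.74 against 0.63 for the 71 members. Of 11 pharynx markers, 9 were higher, and of 14 germline and oocyte markers, 12 were lower. The part of these markers in the differences between members was not tested.

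**Figure D5:**
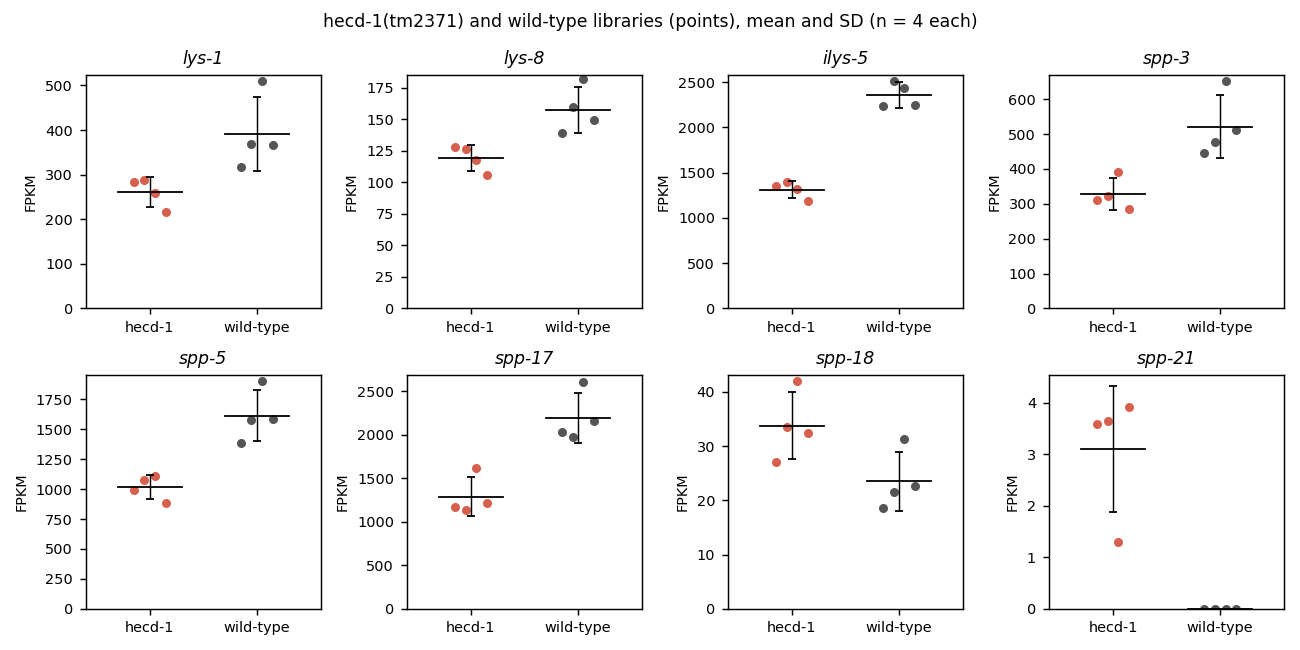
FPKM of 8 members in hecd-1(tm2371) and wild-type libraries (points), with the mean as a bar and the SD as an error bar (n = 4 each). lys-1, lys-8, ilys-5, spp-3, spp-5 and spp-17 lay lower in all hecd-1 libraries, and spp-21 was at 0 in all wild-type libraries.

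Neighbouring members of a family did not always change alike. On chromosome V (WBcel235), lys-1 (10277904 to 10279056, plus strand) and lys-2 (10280307 to 10281474, minus strand) lie 1251 bases apart, and in bcat-1 mutants they rose by 0.91 and 2.42 on the log2 scale. Within each library, lys-2 was lower than lys-1 by 1.02 to 1.17 on the log2 scale in bcat-1 mutants, against 2.31 to 2.84 in wild-type. On chromosome X, spp-2 (7315995 to 7316818) rose by 1.81 and its neighbour spp-3 (7314969 to 7315353) changed by 0.23 (adjusted p = 0.099) in bcat-1 mutants. These pairs were picked after the values had been seen and are a description. Further clusters are fipr-4 to fipr-9 between 10220981 and 10239961 on chromosome V and cnc-2, cnc-3 and cnc-4 between 1447195 and 1450183 on the same chromosome.

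Other genes of the pathways that control these families were counted by lists, against the 19.9%, 33.9%, 26.4% and 14.0% of all tested genes that were higher in ivd-1, bcat-1, double and hecd-1 mutants. The shares of all tested genes that were lower were 2.88%, 10.3%, 11.9% and 7.15% in that order of strains. A count near such a share is no result about a list. Of 10 genes of the p38 PMK-1 pathway, the main pathway of intestinal defence, 6 were higher in ivd-1, 9 in bcat-1 and 8 in the double mutant, while 2 were higher and 1 lower in hecd-1 mutants. tir-1, the adaptor at its head, rose by 1.24 and vhp-1, a phosphatase that dampens it, by 1.39 on the log2 scale in bcat-1 mutants. Of 10 genes of the DBL-1 TGF-beta pathway, 4, 9, 5 and 0 were higher in ivd-1, bcat-1, double and hecd-1 mutants, and 1 was lower in hecd-1. Of 8 genes of the insulin and DAF-16 pathway, 1, 2, 2 and 3 were higher. Of 10 intestinal immune regulators, 2, 7, 4 and 1 were higher and 1 was lower in hecd-1 mutants, and the transcription factor gene zip-2 rose by 1.12, 1.63 and 1.33 in ivd-1, bcat-1 and the double mutant. Of 10 genes of epidermal immune signalling, 4, 7, 3 and 0 were higher, and 1 was lower in the double mutant.

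Of 14 tested nlp and fip peptide genes of the epidermis, 10 were higher in ivd-1, 10 in bcat-1, 10 in the double mutant and 6 in hecd-1 mutants, where 3 were lower, with medians of 1.41, 1.83, 1.27 and 0.38. nlp-29, a peptide gene induced by fungal infection and wounding, rose by 1.99, 2.23 and 1.77 on the log2 scale in the first 3 of these strains. Of 13 tested immune response genes of a mixed list, 5 were higher in ivd-1, 9 in bcat-1 and 8 in the double mutant, and none in hecd-1 mutants, while 1, 0, 1 and 3 were lower in that order of strains. irg-5, a marker of the p38 pathway in the intestine, rose by 5.60 (SE 0.30, adjusted p = 9.32e-10) in bcat-1 and 4.92 (SE 0.30, adjusted p = 3.81e-09) in the double mutant, while it was at 0.78 (SE 0.30, adjusted p = 0.0695) in ivd-1 mutants. irg-4 likewise rose by 2.54 in bcat-1 and 2.14 in the double mutant and was at −0.14 in ivd-1 mutants (adjusted p = 0.736).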

How the data were processed

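The authors sequenced stranded, poly-A-selected libraries of whole worms and deposited 1 table of FPKM per gene, made by alignment with Tophat2 and summary with Cufflinks on an Ensembl annotation. The submitters' processing notes name CASAVA and Cufflinks. Per the labels there were 20 samples, 4 of each of 5 strains, numbered by their titles. FPKM are not counts, so no count model was used, although the authors used DESeq2 on counts. Genes with an FPKM of 0.5 or more in 4 or more samples (15957) were fitted on log2(FPKM + 0.5) with limma 3.58.1 in R 4.3.3 (lmFit, contrasts.fit, eBayes with trend), all 20 samples with strain as the only term, two-sided, adjusted by Benjamini-Hochberg over all tested genes, over 9 contrasts. Tables were read with Python 3.11.15 and pandas 2.3.3 and plots drawn with matplotlib 3.10.9. The fit was tested on simulated data.

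Coordinates, exons and overlaps come from Ensembl release 115 (WBcel235). The authors' gene build was not compared base by base, so these positions are of that release. Exons of 6 members overlap another coding gene on the other strand. Members given by library were genes set by name for their known or likely part in defence and the most abundant of each family. Those called with the largest change that reached a mean of 1 FPKM were added, up to 6 in families of over 10 members and up to 3 in others. For some of them the values of certain strains are not printed. lys-4, spp-14 and the genes counted in clusters fall outside this rule and were named after their values were seen. Members, lists and tests were chosen with earlier results of these data known. Pairs of neighbouring members, the summed fipr genes (the third group tried) and the members drawn or labelled in plots were chosen after the values had been seen. The ratio within 12 such pairs was also tested, in 48 exact permutation tests, of which 27 reached the smallest p of 0.0286 (adjusted 0.0508) and 0 passed 0.05, so pairs are described without a test.

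Same-numbered replicates were compared by the correlation of their deviations from the strain means, which lay between −0.457 and 0.384, and in no comparison were all 4 over 0.1, so the samples were treated as unpaired. Alternatives were pseudocounts of 0.1 and 1, no filter, a mean FPKM of at least 1, median-of-ratios scaling, quantile normalization, a fit restricted to the compared strains, replicate number as a block, sample weights, an adjusted p of 0.01 or less, and leaving out each sample in turn. Promoter motifs and sequences were not used here.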

Additional observations from a re-analysis of the deposited data

Results flagged for a closer look

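In 18 of 180 groups of 4 libraries looked at over the named members, 1 library lay far from the other 3. A rate of about 1 in 20 groups by chance holds for independent normal values, which these are not. In some of these groups the other 3 libraries were at 0, so that any value above 0 was flagged. Groups of different genes also flagged the same library. In ivd-1 replicate 2, fipr-4 was at 32.12 FPKM, fipr-6 at 36.84, fipr-7 at 56.41 and fipr-26 at 6.362, each the highest of its strain. In wild-type, lys-2 was at 102.6 FPKM in replicate 3, spp-31 at 3.312 and spp-7 at 0.04117 in replicate 1, fipr-26 at 0.257 in replicate 4, and abf-4 was listed at 0 in replicate 2. In hecd-1 replicate 3, spp-17 was high at 1620 FPKM, cnc-2 at 3.974 and fipr-16 at 3.98, and spp-21 was low at 1.289. In bcat-1 mutants, cnc-7 was at 11.05 FPKM in replicate 2, fipr-16 at 7.828 in replicate 3 and spp-21 at 0.2373 in replicate 4. lys-3 was at 1.451 FPKM in double mutant replicate 4, and fipr-16 at 3.211 in ivd-1 replicate 4. Without ivd-1 replicate 2, the calls of fipr-4 (adjusted p = 0.137) and fipr-7 (0.0681) in the double mutant against ivd-1 and of fipr-26 (0.0585) in ivd-1 against hecd-1 were lost. Without bcat-1 replicate 2, cnc-7 lost its call in bcat-1 against wild-type (0.078) and against ivd-1 (0.121), and without wild-type replicate 2, abf-4 lost that in hecd-1 mutants (0.107).

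The effect of bcat-1(hh58) differed between ivd-1 mutant and wild-type background in 24 named members by the interaction term of limma, and the interaction was negative in 23 of them. A negative value is not always a smaller effect: that of fipr-21 was −0.93 in the ivd-1 and −0.09 in the wild-type background. The effect in spp-13 was smaller in size and of opposite sign in the ivd-1 background, at −0.94 (not called) against 3.52. On the log2 scale the difference of the effects was −0.71 for lys-1, −1.47 for lys-2, −1.58 for lys-3 and −0.64 for lys-8. In the invertebrate-type lysozymes it was −1.14 for ilys-4 and 0.40 for ilys-5. Among saposin-like genes it was −1.19 for spp-2, −2.33 for spp-7, −0.89 for spp-8, −0.39 for spp-10, −4.46 for spp-13, −1.04 for spp-18 and −1.75 for spp-31. Among fipr genes it was −4.01 for fipr-4, −4.11 for fipr-6, −3.38 for fipr-7, −3.79 for fipr-8, −0.84 for fipr-21 and −3.66 for fipr-26. It was −2.85 for cnc-4, −0.89 for cnc-8, −2.71 for abf-4, −1.80 for abf-5 and −0.81 for abf-6. Of all tested genes, 35.3% had a negative interaction past the same threshold. The value of spp-7, which passed the FPKM minimum only through the bcat-1 libraries, is a description. The calls of lys-3, ilys-5 and fipr-21 were each lost on leaving out single libraries.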

How the results depend on the processing

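Counts of called members stayed within 1.5 times of those given under pseudocounts of 0.1 and 1, no filter, a mean FPKM of at least 1, both scalings, sample weights and the replicate block. An adjusted p of 0.01 or less left 19 members in ivd-1 against wild-type, 19 in the double mutant against ivd-1, 2 in the double mutant against bcat-1 and 13 in bcat-1 against ivd-1. With only the strains compared, the double mutant against bcat-1 gave 0 calls. Leaving out 1 library gave 2 to 35 calls there, with 35 without bcat-1 replicate 2 and 2 without double mutant replicate 3. The other ranges were 22 to 33 for ivd-1, 40 to 44 for bcat-1, 25 to 34 for the double mutant and 13 to 19 for hecd-1 against wild-type, 24 to 35 for the double mutant and 16 to 26 for bcat-1 against ivd-1, 35 to 40 for ivd-1 against hecd-1 and 34 to 43 for the interaction. Leaving out the 5 members that pass the FPKM minimum only through a certain strain, chosen after seeing the data, kept every count within 1.5 times. No named value changed its sign past the threshold under the alternatives run. The cause of these differences was not tested, beyond the stricter threshold itself.

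The labels tie samples of different strains by a replicate number alone. Since the replicates came from independent experiments, a shared number may stand for a shared experiment, which the labels do not say. Correlations of same-numbered replicates were all positive for ivd-1 (0.041 to 0.254) and hecd-1 (0.0835 to 0.301) against wild-type. With the replicate block the counts were 32, 44, 37 and 16 against wild-type, in the order ivd-1, bcat-1, double mutant and hecd-1, then 36 and 15 for the double mutant against ivd-1 and bcat-1, 23 for bcat-1 against ivd-1, and 40 each for ivd-1 against hecd-1 and the interaction. Of 176 calls of named members, 4 were lost under it, and of 148 results not called, 16 became called, among them lys-7, fipr-4, fipr-6, fipr-8 and ilys-5 in the double mutant, ilys-5 and spp-3 in ivd-1 and spp-3 in bcat-1 mutants, all against wild-type. Relative to the FPKM as deposited, quantile normalization moved the median log2 fold change of all genes by −0.292, −0.418, −0.173 and −0.077 in the comparisons with wild-type, and the members' medians were then 0.31, 0.64, 0.41 and 0.05. The reads behind each value are unknown, and 10 members averaged under 1 FPKM, where the pseudocount sets much of a fold change.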

Other observations

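Among the 21 listed genes that did not reach the FPKM minimum in 4 libraries, ilys-6, spp-26, fipr-12, fipr-14 and fipr-25 were at 0 in all 20 libraries. fipr-15 was at 5.436 FPKM in bcat-1 replicate 2 and at 0 in every other library, and cnc-1 was at 2.952 FPKM in double mutant replicate 3 and at 0 in every other library. These single values have no replicate behind them.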
